A study of Mus musculus with 27 samples.

Results

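Predicted let-7 target genes were followed across CD8 T cell activation, namely Hmga1, Arid3a, Arid3b, Cdc34, Tmed5, Zc3hav1l and Nupr1. They are 7 of 35275 genes in the deposited tables, and 7 of the 38 predicted let-7 targets that the study listed among genes raised in lin28Tg and lowered in let-7Tg cells. Each was matched by its symbol. RNA was sequenced from P14 CD8 T cells, whose transgenic T cell receptor recognises the gp33 peptide of lymphocytic choriomeningitis virus, in 27 libraries that fall into 9 groups of 3. The 3 genotypes were WT P14+, Lin28bTg P14+ (called lin28Tg) and Let-7Tg P14+ (called let-7Tg), all on a Rag2-/- background, which leaves the mice without other rearranged T and B cell receptors. The 3 stages were naive cells with no treatment, cells stimulated for 12 h with anti-CD3 (2 μg/mL) and anti-CD28 (5 μg/mL), and cytotoxic T lymphocytes (CTLs) at day 5, which were raised with irradiated splenocytes and anti-CD3 (2 μg/mL) and given IL-2 (100 U/mL) after 48 h. Mice of both sexes were 6 to 10 weeks old. The let-7 transgene encodes let-7g and is switched on by doxycycline, which per the study's methods was also given to control mice in drinking water (2 mg/mL for 4 days) and was used in culture at 2 μg/mL when necessary. The promoter of the lin28 transgene is not given in the sources used here. The labels give lymph nodes as the source of every group, while the growth protocol also names spleens.

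Let-7 is a family of microRNAs that share a seed, the stretch of bases through which a microRNA pairs with matching sites in the 3′ untranslated region (3′UTR) of a transcript, and pairing lowers the level or the translation of that transcript. Lin28 proteins bind let-7 precursors and block their maturation, so a lin28 transgene removes mature let-7 and a let-7 transgene adds it. In T cells let-7 is abundant in the naive state and falls after stimulation through the antigen receptor. The comparison of lin28Tg, WT and let-7Tg cells therefore sets low, normal and raised let-7 side by side at each stage.

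The selection of the genes used part of the same measurements. The study crossed predicted targets with the genes that were, at a given stage, significantly raised by the lin28 and lowered by the let-7 transgene, which listed Tmed5 and Cdc34 at the naive stage, Arid3a, Arid3b and Cdc34 at 12 h, and Hmga1, Arid3a, Nupr1 and Zc3hav1l at day 5. These 9 of the 21 gene and stage pairs are given below as a description with no test. Of the other 12 pairs, 10 were tested, and each of the 12 had missed at least 1 of those criteria in the study's own comparison.

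The mature sequences below, from RefSeq (GRCm38.p6), show the seed in capitals at bases 2 to 8, 5′ to 3′. Let-7g-5p is the arm that the transgene adds, let-7a-5p and miR-98-5p are other members of the 10 mature microRNAs with the seed GAGGUAG, and let-7j is shown because its seed differs.
let-7g-5p: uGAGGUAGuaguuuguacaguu
let-7a-5p: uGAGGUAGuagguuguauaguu
miR-98-5p: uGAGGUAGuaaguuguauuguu
let-7j: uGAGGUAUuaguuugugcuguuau

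A match to this seed was searched on the sense strand of annotated 3′UTRs (GENCODE M21, GRCm38) as CTACCTCA (8mer), CTACCTC (7mer-m8), TACCTCA (7mer-A1) or TACCTC (6mer), each stretch being counted once as the longest match it holds. The windows below are the 5 8mers of the 7 genes, the lone match of Hmga1, and the first and last matches of Arid3b, which has no 8mer. The match is in capitals and the sequence is that of the transcript, 5′ to 3′.
Cdc34, 8mer, chr10:79688107-79688136, plus strand: tgtgggcctcaggcgacagaCTACCTCAcc
Arid3a, 8mer, chr10:79953890-79953919, plus strand: catgcaaggcaagtttctttCTACCTCAgg
Tmed5, 8mer, chr5:108122813-108122842, minus strand: aatgatcttgcactaccctgCTACCTCAca
Zc3hav1l, first 8mer, chr6:38292881-38292910, minus strand: atcattggcaactgtaatacCTACCTCAca
Zc3hav1l, second 8mer, chr6:38292197-38292226, minus strand: tggactctgctcggaggtttCTACCTCAcc
Hmga1, 7mer-m8, chr17:27563272-27563301, plus strand: tcttctcctctgttcacaaaCTACCTCtgg
Arid3b, first 7mer-A1, chr9:57792441-57792470, minus strand: aggagattgatgcacagaattTACCTCAcc
Arid3b, 7mer-m8, chr9:57790359-57790388, minus strand: gtttatatttcaataaagctCTACCTCttc

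The longest annotated 3′UTRs of the 7 genes held 20 matches, and 6 genes had an 8mer or a 7mer. Zc3hav1l carried 2 8mers among 5 matches in a 3′UTR of 5626 bases, and Arid3b carried 4 7mer-A1 matches and 1 7mer-m8 match in 2160 bases. Arid3a held 4 matches in 3082 bases, Tmed5 held 3 in 2914 bases, and Cdc34 held 2 in only 339 bases, its 8mer lying 69 bases after the stop codon. Hmga1 held 1 match, 802 bases into 1178 bases. Nupr1 had none of these letters in its 344 annotated bases. Of 21660 genes with an annotated 3′UTR, 2.91% held an 8mer and 14.2% an 8mer or a 7mer, with 8mers in 0.459% of 3′UTRs under 500 bases and in 6.12% of those of 1500 bases or more. The genes were chosen as predicted targets, so their matches are a description and not a result.

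**Figure D1:**
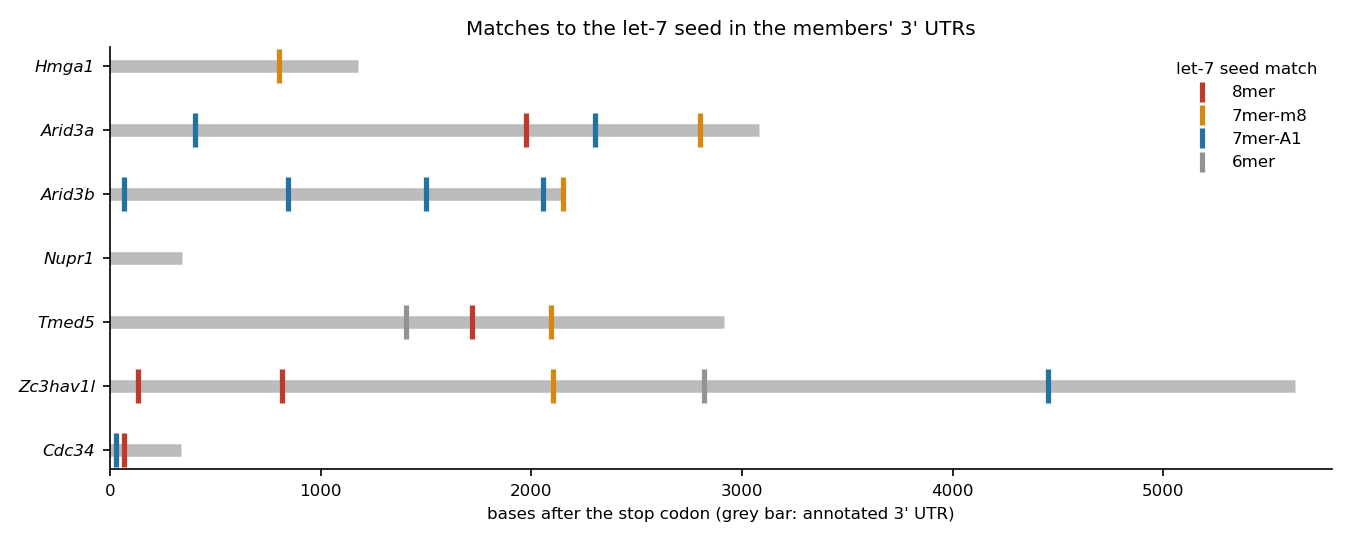
Positions of let-7 seed matches in the longest annotated 3′UTR of each of the 7 genes, in bases after the stop codon, with tick colour giving the kind of match. Zc3hav1l has the longest 3′UTR (5626 bases) and 2 8mers, and Nupr1 (344 bases) has no match.

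The 27 libraries held between 13862679 and 23590836 reads on genes. Lin28b lay between 9.94 and 67.9 FPKM (fragments per kilobase of transcript, scaled to the size of the library) in the 9 lin28Tg libraries and at no more than 0.059 FPKM elsewhere. Col1a1, the locus that holds the let-7 transgene, lay between 9.06 and 62.8 FPKM in let-7Tg and at no more than 4.93 FPKM elsewhere. The CD8 T cell markers Cd8a, Cd8b1, Cd3e, Cd3d and Thy1 were present in every library, while markers of other cells moved with genotype. At the naive stage the 5 myeloid markers summed to 116 to 602 FPKM in lin28Tg, 24.4 to 39.9 FPKM in WT and 14.2 to 44.1 FPKM in let-7Tg, and the 4 erythroid markers summed to 343 to 1.36e+03, 104 to 199 and 1.41 to 32.8 FPKM in that order, none of these markers being at 0 in all libraries of a group. At 12 h the erythroid sum was still 57.4 to 497 FPKM in lin28Tg against 18.8 to 77 FPKM in WT and 0.774 to 3.74 FPKM in let-7Tg. At day 5 the 3 NK markers summed to 60.8 to 158 FPKM in lin28Tg, 8.35 to 40.6 FPKM in WT and 2.15 to 4.7 FPKM in let-7Tg, with Klra8 at 0 in all 3 lin28Tg libraries and Ncr1 and Klra8 at 0 in all 3 WT libraries, whereas the myeloid sum was at most 3.56 FPKM. Naive lin28Tg also had more NK (23.7 to 72.4 FPKM, against 9.36 to 23 FPKM in the other genotypes) and CD4 T cell marker RNA (24 to 83.3 FPKM, against 12.5 to 23.3 FPKM). The 4 stromal markers went the other way, at 40.5 to 46.8 FPKM in naive lin28Tg against 63.3 to 75.8 FPKM in the other genotypes, and at 3.13 to 7.53 FPKM in day 5 lin28Tg against 12.9 to 34.8 FPKM. The part of these cells in the values below was not tested. In such bulk samples, fewer cells that express a gene and less RNA per cell cannot be told apart.

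All 7 genes were highest in lin28Tg cells at nearly every stage. The pairs tested here were all higher there than in let-7Tg cells, whereas few of their let-7Tg levels could be separated from WT. The tested pairs had each missed at least 1 criterion of the study, and a fall in let-7Tg was 1 such criterion. Selection therefore fixed part of the low count for let-7Tg. The 9 selecting pairs, which met that criterion in the study's comparison, are not in it. Of the 12 pairs that had not been selected, Nupr1 at 12 h failed the filter on low values and Nupr1 at the naive stage passed it through its lin28Tg libraries alone, so that neither was tested. Over the other 10 pairs, lin28Tg exceeded let-7Tg in 10, lin28Tg exceeded WT in 7, and let-7Tg lay below WT in 1, at an adjusted p under 0.05 (limma). Among all genes tested, lin28Tg exceeded let-7Tg in 22.7% at the naive stage, 16.5% at 12 h and 10.7% at day 5. The share higher in lin28Tg than in WT was 19.4%, 5.87% and 1.96% at the same stages, and the share lower in let-7Tg than in WT was 0.444%, 1.88% and 0.315%. These shares themselves moved with the processing, that of lin28Tg over WT at day 5 from 0.488% to 2.27% when 1 library was left out. The naive stage, at which the lin28Tg libraries held more myeloid and erythroid marker RNA, supplied 3 of these 7 calls of lin28Tg over WT. Over 12 h and day 5 alone, lin28Tg exceeded let-7Tg in 6 of 6 tested pairs and WT in 4 of 6.

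**Figure D2:**
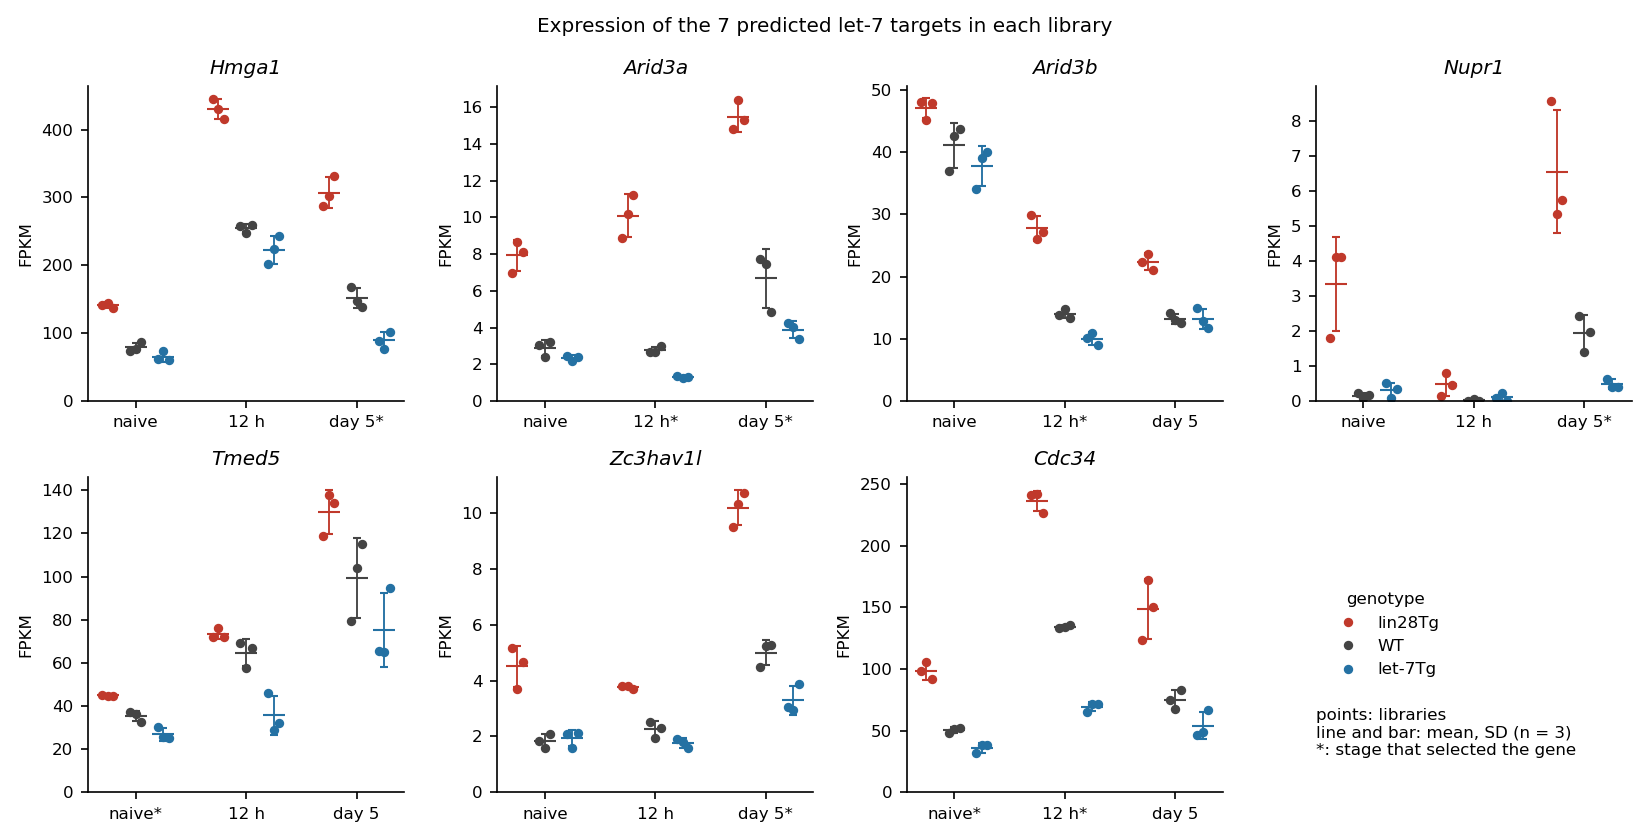
FPKM of each of the 7 genes in every library (points, with lines and bars for the mean and SD, n = 3, and an asterisk at selecting stages) by stage and genotype, with a separate scale for each gene. The lin28Tg points lie above all WT and let-7Tg points in 20 of the 21 gene and stage pairs, the exception being Nupr1 at 12 h. Selection fixed part of this count, and 11 of the 12 pairs that had not been selected show it. Among all tested genes 22.2% do so in naive cells, 13.8% at 12 h and 7.62% at day 5.

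Hmga1 (chr17:27556497-27563674, plus strand) encodes an architectural chromatin protein that binds AT-rich DNA and is abundant in proliferating and embryonic cells. Naive libraries read 73.7, 76.8 and 86.2 FPKM in WT, 142, 145 and 137 FPKM in lin28Tg, and 61.7, 73.6 and 60.6 FPKM in let-7Tg. At 12 h they read 258, 247 and 259 FPKM in WT, 445, 430 and 415 FPKM in lin28Tg, and 202, 224 and 243 FPKM in let-7Tg. The 3 genotypes did not overlap at either stage, lin28Tg being highest and let-7Tg lowest, although the gap between WT and let-7Tg was narrow beside the gap to lin28Tg.
The log2 difference of lin28Tg from WT was 0.79 (SE 0.09, adjusted p = 0.00042) in naive cells and 0.73 (SE 0.08, adjusted p = 0.00108) at 12 h. The difference of let-7Tg from WT was -0.31 (adjusted p = 0.166) and -0.24 (adjusted p = 0.138) at these stages, neither of which passed the test. At day 5, the stage that selected it, Hmga1 read 168, 148 and 139 FPKM in WT, 287, 302 and 332 FPKM in lin28Tg, and 88.7, 77.0 and 102 FPKM in let-7Tg. In WT cells Hmga1 rose by 1.96 on the log2 scale (SE 0.11) from the naive stage to 12 h and fell by 0.91 (SE 0.11) from there to day 5. The near-identical copy Hmga1b was listed at much lower levels, and how reads matching both were counted is not given in the sources used here, so that a share of Hmga1 reads is uncertain.

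Arid3a (chr10:79927043-79955018, plus strand) and Arid3b (chr9:57790353-57836793, minus strand) encode related DNA-binding factors with an AT-rich interaction domain, the first known from B cell and haematopoietic gene control. Naive Arid3a read 3.04, 2.38 and 3.23 FPKM in WT, 6.98, 8.65 and 8.14 FPKM in lin28Tg, and 2.44, 2.15 and 2.40 FPKM in let-7Tg. The lin28Tg libraries stood clear of all others, and let-7Tg overlapped WT. Arid3a was higher in naive lin28Tg than in WT by 1.28 on the log2 scale (SE 0.14, adjusted p = 0.000239), and let-7Tg differed from WT by -0.28 (SE 0.14, adjusted p = 0.383).
At 12 h and day 5, which both selected it, the 3 genotypes of Arid3a were apart. The 12 h libraries read 2.68, 2.66 and 2.98 FPKM in WT, 8.86, 10.2 and 11.2 FPKM in lin28Tg, and 1.35, 1.24 and 1.31 FPKM in let-7Tg. The day 5 libraries read 7.71, 7.45 and 4.85 FPKM in WT, 14.8, 16.4 and 15.3 FPKM in lin28Tg, and 4.26, 4.01 and 3.39 FPKM in let-7Tg. The spread from lin28Tg to let-7Tg at 12 h, 2.57 on the log2 scale, was the widest of Arid3a. In WT cells Arid3a differed by 0.19 (SE 0.14, adjusted p = 0.224) between the naive stage and 12 h and rose by 0.97 (SE 0.14, adjusted p = 2.47e-06) from 12 h to day 5.

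Arid3b was most abundant in naive cells. Naive libraries read 36.9, 42.6 and 43.7 FPKM in WT, 48.0, 45.2 and 47.9 FPKM in lin28Tg, and 34.1, 39.0 and 40.1 FPKM in let-7Tg. All lin28Tg libraries were above the rest by a small margin, and WT and let-7Tg overlapped. Naive lin28Tg exceeded let-7Tg by 0.31 on the log2 scale (SE 0.09, adjusted p = 0.0166), a call that was lost without let-7Tg replicate 1 (0.24) or lin28Tg replicate 1 (0.26) or 3 (0.30), and its difference from WT was 0.15 (adjusted p = 0.216).
At day 5 Arid3b read 14.1, 13.0 and 12.5 FPKM in WT, 22.4, 23.7 and 21 FPKM in lin28Tg, and 15, 12.8 and 11.8 FPKM in let-7Tg. Here lin28Tg was clear of both other genotypes, which overlapped throughout. The log2 difference from WT was 0.80 in lin28Tg (SE 0.11, adjusted p = 0.00638) and -0.05 in let-7Tg (SE 0.11, adjusted p = 0.95). At 12 h, the selecting stage, Arid3b read 13.8, 14.8 and 13.4 FPKM in WT, 29.9, 26.1 and 27.2 FPKM in lin28Tg, and 10.1, 11 and 8.93 FPKM in let-7Tg. In WT cells Arid3b fell by 1.25 on the log2 scale (SE 0.09, adjusted p = 2.11e-11) from naive to 12 h, and it was the only one of the 7 called lower at day 5 than in naive cells (-1.49, SE 0.09, adjusted p = 1.74e-12).

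Cdc34 (chr10:79682195-79688398, plus strand) encodes a ubiquitin-conjugating (E2) enzyme that works with SCF ubiquitin ligases in cell cycle progression. At day 5 it read 75.2, 67.7 and 83.0 FPKM in WT, 124, 172 and 150 FPKM in lin28Tg, and 46.6, 49.0 and 66.5 FPKM in let-7Tg. The 3 genotypes were apart, but the highest let-7Tg library lay just under the lowest WT library. The log2 difference from WT was 1.03 in lin28Tg (SE 0.19, adjusted p = 0.0205) and -0.54 in let-7Tg (SE 0.19, adjusted p = 0.268), and that between lin28Tg and let-7Tg was 1.57 (adjusted p = 0.000826). The call against WT was lost without lin28Tg replicate 2 (0.90) or 3 (1.01) or without WT replicate 1 (1.02) or 2 (0.95).
Naive Cdc34, at a selecting stage, read 48.3, 51.5 and 52.6 FPKM in WT, 98.1, 106 and 91.6 FPKM in lin28Tg, and 31.8, 38.3 and 38.4 FPKM in let-7Tg. At 12 h, also selecting, it read 133, 134 and 136 FPKM in WT, 241, 242 and 227 FPKM in lin28Tg, and 65.4, 71.7 and 71.6 FPKM in let-7Tg. At 12 h the WT level lay nearer to lin28Tg (0.79 on the log2 scale) than to let-7Tg (-0.99). WT Cdc34 rose by 1.67 (SE 0.14, adjusted p = 2.75e-10) from naive to 12 h and fell by 1.00 (SE 0.14, adjusted p = 1.11e-06) to day 5. Reads shared with the near-identical Cdc34b, which was close to 0, could not be assigned with certainty.

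Tmed5 (chr5:108106366-108132620, minus strand) encodes a p24 family protein of the early secretory pathway, which helps sort cargo between endoplasmic reticulum and Golgi. Tmed5 at 12 h gave the only let-7Tg against WT call among the tested pairs. The libraries read 69.3, 57.8 and 67.1 FPKM in WT, 72.2, 76.1 and 72.1 FPKM in lin28Tg, and 45.9, 28.9 and 32.3 FPKM in let-7Tg. All let-7Tg libraries were well below the rest, and lin28Tg sat just above WT. The log2 difference from WT was -0.92 in let-7Tg (SE 0.17, adjusted p = 0.0285) and 0.16 in lin28Tg (SE 0.17, adjusted p = 0.597). The size of this let-7Tg difference stayed between -1.13 and -0.73 when any 1 library was left out, but the call was kept in 2 of 9 such fits, those without let-7Tg replicate 1 or lin28Tg replicate 1.
At day 5 Tmed5 read 79.2, 104 and 115 FPKM in WT, 119, 138 and 134 FPKM in lin28Tg, and 65.3, 65.1 and 94.9 FPKM in let-7Tg. WT and let-7Tg overlapped through let-7Tg replicate 3, and lin28Tg was above both. Neither difference from WT passed the test, at 0.46 for lin28Tg (SE 0.20, adjusted p = 0.248) and -0.46 for let-7Tg (SE 0.20, adjusted p = 0.4), while lin28Tg exceeded let-7Tg by 0.92 (adjusted p = 0.0115). With the replicate block, lin28Tg was called above WT at day 5 (0.46, SE 0.12, adjusted p = 0.0443). Naive Tmed5, at its selecting stage, read 37.3, 36.5 and 32.8 FPKM in WT, 45.3, 44.9 and 44.9 FPKM in lin28Tg, and 30.5, 25.5 and 25.1 FPKM in let-7Tg. WT Tmed5 rose by 1.13 on the log2 scale (limma, SE 0.18, adjusted p = 5.59e-06) to 12 h and by 1.57 (SE 0.18, adjusted p = 7.29e-08) from the naive stage to day 5. Tmed5 was the gene whose WT level lay nearer to lin28Tg than to let-7Tg at every stage. In naive cells (0.29 for lin28Tg and -0.43 for let-7Tg, SE 0.09 each) and at day 5 the margin was within the error.

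Zc3hav1l (chr6:38287396-38299259, minus strand) encodes a protein related to the zinc-finger antiviral protein ZAP, with little known of its function. Naive libraries read 1.83, 1.59 and 2.08 FPKM in WT, 5.16, 3.70 and 4.66 FPKM in lin28Tg, and 2.10, 1.60 and 2.13 FPKM in let-7Tg. WT and let-7Tg could not be separated (0.03 on the log2 scale, SE 0.17, adjusted p = 0.957), and all lin28Tg libraries lay above both, by 1.05 over WT (SE 0.17, adjusted p = 0.00179). At 12 h the libraries read 2.53, 1.93 and 2.30 FPKM in WT, 3.80, 3.79 and 3.71 FPKM in lin28Tg, and 1.90, 1.82 and 1.58 FPKM in let-7Tg.
The genotypes were apart at 12 h, though the highest let-7Tg library nearly met the lowest WT library. lin28Tg exceeded WT by 0.62 (SE 0.13, adjusted p = 0.0189) and let-7Tg by 0.93 (SE 0.13, adjusted p = 0.000862), while let-7Tg differed from WT by -0.32 (adjusted p = 0.197). The call against WT was lost without lin28Tg replicate 2 (0.62) or 3 (0.64) or WT replicate 2 (0.52) or 3 (0.64), and without the filter on low values. At day 5, the selecting stage, Zc3hav1l read 4.47, 5.24 and 5.26 FPKM in WT, 9.50, 10.3 and 10.7 FPKM in lin28Tg, and 3.05, 2.94 and 3.89 FPKM in let-7Tg. WT levels rose at each step, by 0.46 (SE 0.14, adjusted p = 0.00736) to 12 h, a call lost without WT 12 h replicate 1 (0.33) or without scaling (0.24), and by 0.87 (SE 0.14, adjusted p = 1.57e-05) from 12 h to day 5.

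Nupr1 (chr7:126623249-126630861, minus strand) encodes a small nuclear protein induced by cellular stress, and it was the least abundant of the 7. Naive libraries held 3, 1 and 2 reads in WT (0.217, 0.0806 and 0.161 FPKM), 28, 85 and 58 reads in lin28Tg (1.80, 4.10 and 4.11 FPKM), and 7, 1 and 4 reads in let-7Tg (0.514, 0.081 and 0.328 FPKM). The lin28Tg libraries were well above all others, and WT and let-7Tg overlapped near the limit of detection. No test is given, because only the lin28Tg libraries carried the gene past the filter. Naive lin28Tg was also the group with the higher myeloid and erythroid marker sums, which in replicates 1 to 3 were 116, 602 and 328 FPKM (myeloid) and 709, 1.36e+03 and 343 FPKM (erythroid), and their part in the Nupr1 reads was not tested.
At 12 h Nupr1 had 0, 1 and 0 reads in WT, 2, 12 and 7 reads in lin28Tg, and 1, 3 and 0 reads in let-7Tg, which was too few for a test. The lin28Tg range overlapped that of let-7Tg. At day 5, the selecting stage, Nupr1 read 2.43, 1.39 and 1.97 FPKM in WT, 8.57, 5.35 and 5.74 FPKM in lin28Tg, and 0.639, 0.402 and 0.403 FPKM in let-7Tg. In WT cells it rose by 2.19 on the log2 scale (SE 0.27, adjusted p = 2.15e-07) from 12 h to day 5.

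**Figure D3:**
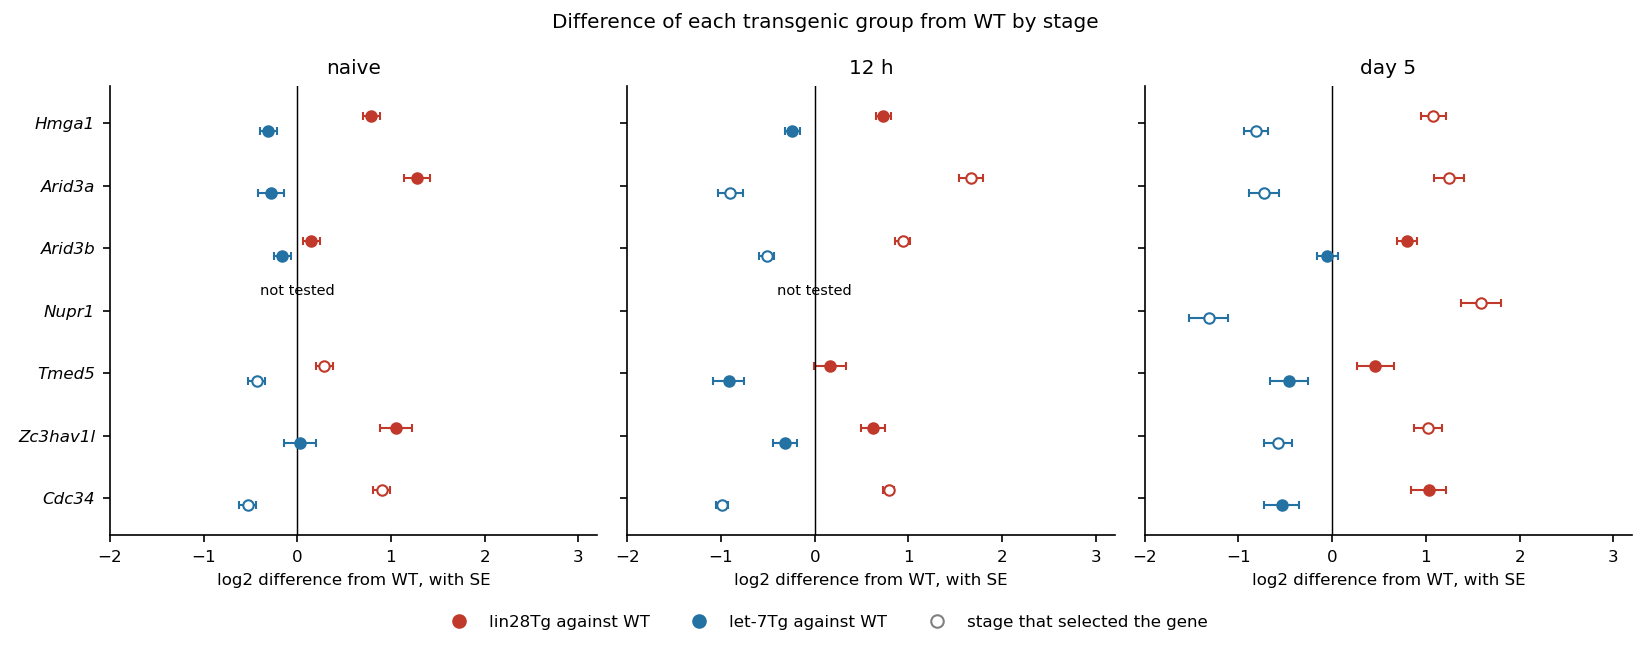
Log2 differences of lin28Tg and let-7Tg from WT for the 7 genes at each stage, from limma on scaled log2(FPKM + 0.5), with bars of 1 SE and open symbols at selecting stages. At stages that did not select them, the lin28Tg differences run from 0.15 to 1.28 and the let-7Tg differences from -0.92 to 0.03. Nupr1 was not tested in naive cells or at 12 h.

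The order of lin28Tg, WT and let-7Tg was asked of each gene at each stage. Group means followed it in 5 of 7 genes in naive cells, 6 of 7 at 12 h and 6 of 7 at day 5, where 23.7%, 25.8% and 23% of all tested genes did so. The 3 ranges were separate in that order in 3, 6 and 5 of 7 genes, beside 3.15%, 4.69% and 2.23% of all tested genes. Selection fixed part of these counts. Over the 12 unselected pairs the means were in order in 8 and the ranges separate in 5, namely Hmga1 in naive cells and at 12 h, Tmed5 and Zc3hav1l at 12 h, and Cdc34 at day 5. With libraries rescaled by a trimmed mean of log ratios, separation was lost for Hmga1 at 12 h and Cdc34 at day 5. With a median of ratios instead, separation was lost for Hmga1 at 12 h and gained for Arid3a in naive cells. The exceptions to the order of means were Nupr1 in naive cells and at 12 h, Zc3hav1l in naive cells and Arid3b at day 5, in each of which let-7Tg lay between lin28Tg and WT, and the last returned to the order after rescaling.

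The 2 transgenes were each set against WT. Over the 10 tested pairs the median log2 difference from WT was 0.76 for lin28Tg and -0.30 for let-7Tg, where all tested genes had medians between -0.03 and 0.01 for lin28Tg and between -0.02 and 0.01 for let-7Tg. The WT level lay nearer to let-7Tg than to lin28Tg in 7 of the 10, beside 69.6% of all genes in naive cells, 52.7% at 12 h and 59.3% at day 5. The 10 pairs had each missed at least 1 criterion of the study, which included a fall in let-7Tg. Selection thus fixed part of these medians and of the count of 7. With the selecting pairs included, the medians over 19 pairs were 0.90 for lin28Tg and -0.51 for let-7Tg, a description only. Both differences share the WT libraries, and whether their sizes differ was not tested.

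The 7 genes took different courses through activation of WT cells. At an adjusted p under 0.05 (limma over all 27 libraries), 5 of 7 changed from naive to 12 h, 7 of 7 from 12 h to day 5 and 7 of 7 from naive to day 5, beside 70.9%, 67.5% and 65% of all genes in either direction. Hmga1 and Cdc34 peaked at 12 h, Tmed5 and Zc3hav1l rose at both steps, Arid3a and Nupr1 rose after 12 h, and Arid3b fell. The smaller steps were less secure, since the fall of Arid3b from 12 h to day 5 (-0.24, adjusted p = 0.0202) lost its call in 9 of 35 alternatives (-0.08 without scaling between libraries) and the rise of Tmed5 over the same step (0.44, adjusted p = 0.0312) lost its call without WT day 5 replicate 2 (0.42) or 3 (0.30), without WT 12 h replicate 2 (0.35) or without the filter (0.44). Stage goes together with the culture conditions, and these cannot be told apart.

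Whether the gap between lin28Tg and let-7Tg changed with stage was read only between stages that had not selected the gene and at which it was tested, which left 4 comparisons. Arid3b had a wider gap at day 5 than in naive cells, by 0.50 on the log2 scale (SE 0.12, adjusted p = 0.00445), where 25.1% of all genes changed their gap between these stages. For Hmga1 and Zc3hav1l from naive to 12 h the change was -0.15 (SE 0.16, adjusted p = 0.616) and -0.07 (SE 0.20, adjusted p = 0.876), where 13.3% of genes changed. For Tmed5 from 12 h to day 5 it was -0.19 (SE 0.25, adjusted p = 0.655), where 20% of genes changed.

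Relatives of the 7 genes gave few calls. In the HMGA family, Hmga2, a classical let-7 target, was present only at low levels, with a mean of 0.603 FPKM in naive lin28Tg and 0.332 FPKM at 12 h, and was listed at 0 in all WT and let-7Tg libraries of these stages. Hmga1b at day 5 held 8, 7 and 4 reads in WT, 22, 29 and 21 reads in lin28Tg and 7, 1 and 6 reads in let-7Tg, and was not tested because it passed the filter through lin28Tg alone. Among 8 tested p24 relatives of Tmed5, the differences between lin28Tg and let-7Tg were small, with Tmed9 (0.28) and Tmed2 (0.17) higher and Tmed8 (-0.31) lower in naive cells, Tmed4 (0.45) higher at 12 h, and none called at day 5. These counts lie near or below the shares of all genes given above (22.7%, 16.5% and 10.7% higher). Zc3hav1, the ZAP gene itself, was not called at any stage. Of 8 tested SCF ligase genes beside Cdc34, 2 were higher and 2 lower in lin28Tg than in let-7Tg both in naive cells and at 12 h, shares near those of all genes (22.7% higher and 21.5% lower in naive cells, 16.5% and 13.6% at 12 h). Among them were the CDK regulatory subunit Cks1b (2.74 in naive cells, SE 0.23, adjusted p = 4.07e-05) and, lower, the adaptor Skp1a (-0.28 in naive cells, -0.34 at 12 h). At day 5, 0 of the 8 were higher and 1 was lower, beside 10.7% and 10.6% of all genes. The lower gene was Skp1a (-0.50, limma adjusted p = 0.0136), and Cks1b was not called there (0.10, adjusted p = 0.545).

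Genes of the stress response in which NUPR1 takes part were read as a list of 8. Like the other lists here, it was chosen with earlier results of these data known, so its counts are not independent evidence. At day 5, the 6 that could be tested were all higher in lin28Tg than in let-7Tg CTLs, where 10.7% of all genes were. Of the 6, 3 were lower in let-7Tg than in WT, where 0.315% of all genes were. Only 1 of the 6 was higher in lin28Tg than in WT (Asns, 0.66, limma adjusted p = 0.0442), where 1.96% of all genes were. Asns, asparagine synthetase, averaged 108 FPKM in WT, 164 FPKM in lin28Tg and 42.3 FPKM in let-7Tg (lin28Tg against let-7Tg 2.06 on the log2 scale, SE 0.15, adjusted p = 0.000131). Chac1, which degrades glutathione, averaged 5.00, 9.17 and 1.41 FPKM in the same order (2.38, SE 0.25, adjusted p = 0.000455). The other 4 were Trib3 (1.24), the transcription factor Atf4 (0.88), Sesn2 (0.76) and Ddit3 (0.63). In naive cells 1 of 5 and at 12 h 1 of 6 was higher in lin28Tg than in let-7Tg, beside 22.7% and 16.5% of all genes, and whether the stages differ was not tested.

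Well-known let-7 targets outside the 7 genes were mixed in direction. Of the 29 listed, 13 of 21 tested were higher and 4 lower in lin28Tg than in let-7Tg in naive cells (22.7% and 21.5% of all genes), 13 and 2 of 22 at 12 h (16.5% and 13.6%), and 10 and 2 of 23 at day 5 (10.7% and 10.6%). Genes that passed the filter through lin28Tg alone were left out, namely Hmga2, Mycn and Il13 at 12 h, Hmga2 in naive cells and Trim71 at day 5. The median log2 differences were 0.47, 0.59 and 0.45 beside -0.03, 0.00 and 0.01 over all genes. Tgfbr1, a TGF-β receptor, was higher in naive cells (0.75, SE 0.08) and at 12 h (0.85, SE 0.09), as were the T-box factor Eomes (1.85) and Myc (0.57) in naive cells, the matrix protein Thbs1 (1.42) and the microRNA-processing enzyme Dicer1 (0.62) at 12 h, and the RNA-binding proteins Igf2bp2 (1.14) and Igf2bp3 (1.85) at day 5. The insulin receptor Insr (-0.64) and Irs2 (-0.57) were lower in lin28Tg than in let-7Tg in naive cells, as were Igf1r at 12 h (-0.54) and day 5 (-1.21) and Fas at day 5 (-1.06). Against WT, let-7Tg cells gave few calls in this list, with Myc lower in naive cells (-0.61) and at 12 h (-0.53), and none at day 5.

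The other 31 predicted targets that the study listed were read only at stages that had not selected them. They were higher in lin28Tg than in let-7Tg in 17 of 19 tested genes in naive cells (22.7% of all genes), 16 of 16 at 12 h (16.5%) and 10 of 19 at day 5 (10.7%), with Dlc1 left out in naive cells because it passed the filter through lin28Tg alone. Those with the smallest adjusted p, which are not all the largest differences, were Rrm2 (4.49), the ribonucleotide reductase subunit, Cdc25a (0.96) and Ddx19a (0.64) in naive cells, Gng5 (1.82), Efhd2 (1.01) and Dpp3 (0.89) at 12 h, and Dpp3 (0.83), Golt1b (0.82) and Scd2 (0.73) at day 5. Ccr7, the lymph node homing receptor, was the only one called lower, at day 5 (-4.03, SE 0.30), although it was higher in lin28Tg at 12 h (1.39). Its day 5 means were 36.5 FPKM in WT, 2.56 FPKM in lin28Tg and 53.6 FPKM in let-7Tg. These genes too were chosen on the same libraries at another stage, so their direction is not independent evidence. Across all tested genes an 8mer alone went with small differences between lin28Tg and let-7Tg, with medians of 0.07, 0.13 and 0.13 for genes with an 8mer and -0.02, -0.01 and 0.01 for genes with no match.

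**Figure D4:**
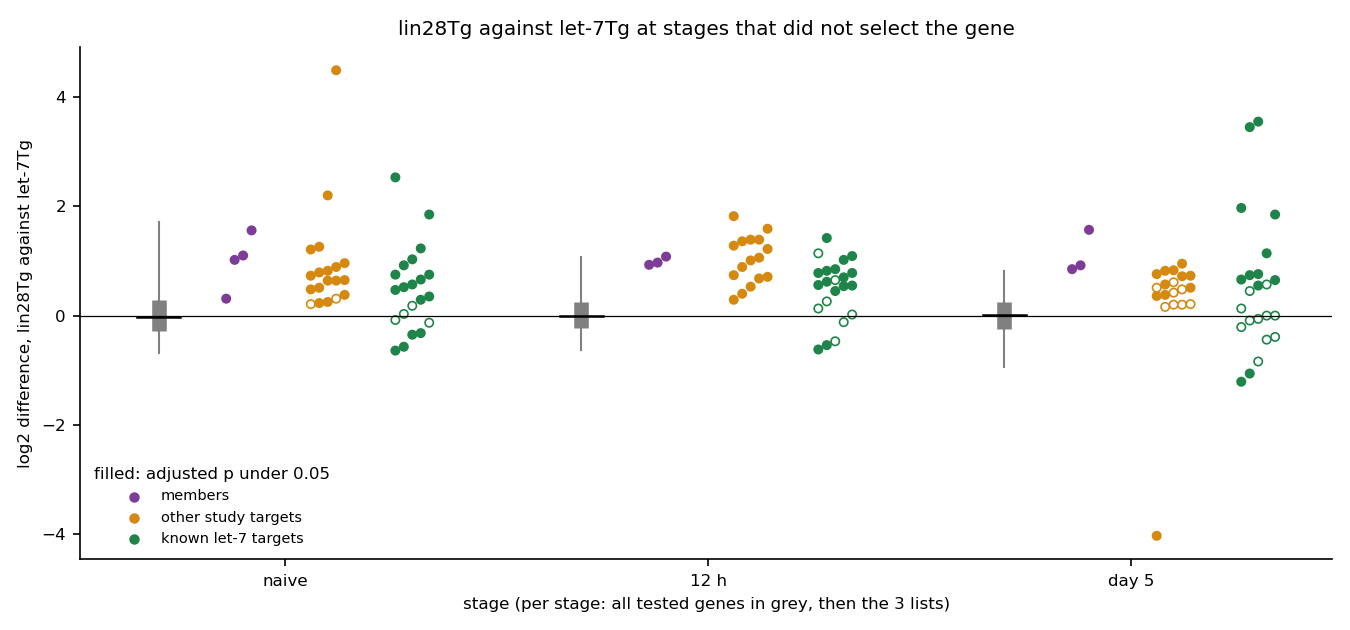
Log2 differences between lin28Tg and let-7Tg at each stage for the 7 genes, the other listed targets (both only at stages that did not select them) and the known let-7 targets, with 1 point per gene, filled where adjusted p was under 0.05, beside the quartiles (box) and the 5th to 95th percentiles (line) of all tested genes. Medians of the known targets are 0.47, 0.59 and 0.45, and Ccr7 at day 5 (-4.03) is the lowest point.

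The 7 genes resembled each other across libraries once each stage was centred on its mean. Over the 27 libraries the 21 pairs among them had Pearson correlations from 0.568 to 0.945 with a median of 0.862, a description only, since the genes were chosen for a shared order of genotypes and share libraries and depth. Among 10831 genes, those most like Hmga1 were Smpdl3b (r = 0.957) and Zc3hav1l (r = 0.945), and Zc3hav1l had the same pair in reverse, Hmga1 and Smpdl3b (r = 0.924). Arid3a was most like Chst11 (r = 0.948) and Nol4l (r = 0.944), and Arid3b was most like Pak6 (r = 0.938) and Zdhhc12 (r = 0.922). Cdc34 was most like Dpp3 (r = 0.968) and Gng5 (r = 0.966), both on the study's list of predicted targets. Tmed5 was most like Fam49b (r = 0.956) and Nras (r = 0.953), the latter a known let-7 target. Nupr1 was most like Litaf (r = 0.94) and Gm9581 (r = 0.923).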

How the data were processed

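Total RNA of naive, 12 h and day 5 P14 CD8 T cells was sequenced from 3 libraries per group, called biological replicates by the study. Per the submitters' processing notes the authors aligned paired-end reads to GRCm38/mm10 with TopHat2 2.0.9 and Bowtie2 2.0.6 and counted genes with HTSeq 0.6.1; the annotation release is not given in the sources used here. The deposited FPKM values, which the authors made from those counts by transcript length and library size, were the unit analysed. Their comparison columns (group mean read counts, log2 fold changes, p-values and heatmap clusters) were not used. Because FPKM are whole multiples of 1 read, reads were recovered for 100.0% of 462839 values above 0 (within 0.02 reads) and gave the depth, 13862679 to 23590836 reads, and the filter.

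A gene was tested if its FPKM came to 10 or more reads at the median depth of the fit in 3 or more libraries and to a sum of at least 15 reads, which left 13277 in naive cells, 12239 at 12 h, 13009 at day 5 and 14453 over 27 libraries. Libraries were scaled to each other by trimmed means (TMM) of their log ratios to a reference library. The log2(FPKM + 0.5) values were fitted with limma 3.58.1 (R 4.3.3, mean-dependent prior variance), 1 fit of 9 libraries per stage and 1 of all 27 for stage changes, with Benjamini-Hochberg adjustment over all genes tested and a threshold of 0.05. Where only libraries of 1 genotype carried a gene past the filter at a stage, no test of it is reported there, a choice made after seeing the data. Differences are on this scale and understate changes of low genes. The script was tested on simulated data. The members and lists were chosen with earlier results of these data known. Named genes beyond the 7 were the transgene checks, near-identical copies, family lists, up to 3 called genes per list, stage and direction with the smallest adjusted p, and the 2 genes most correlated with each of the 7; Trib3, Atf4, Sesn2 and Ddit3 came from the family lists. Some genes that this rule names are not reported here. Deviations of same-numbered libraries correlated between genotypes at 0.244 to 0.717 in every pair at day 5, but from -0.257 to 0.551 in naive and 12 h cells. Replicate numbers thus appeared to pair the libraries at day 5 only, from the data and not from the labels. The main fits did not use this pairing, and their adjusted p-values at day 5 are unpaired. A term for the replicate number (the replicate block) was fitted only as an alternative, at every stage. Alternatives were the pseudocount, the filter, the scaling, voom on recovered reads, only the groups compared, the replicate block and leaving out each library. Seed matches were read from GENCODE M21 (GRCm38), which need not be the authors' annotation, and microRNAs from RefSeq (GRCm38.p6). Depth limits the precision of low values such as Nupr1.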

Additional observations from a re-analysis of the deposited data

Results flagged for a closer look

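Of the 4 comparisons of the lin28Tg to let-7Tg gap between stages that had not selected a gene, 1 passed the test of the difference itself. Among all genes, 13.3% changed this gap from naive to 12 h, 20% from 12 h to day 5 and 25.1% from naive to day 5. A count of 1 in 4 lies near these shares. For Arid3b the gap was 0.31 in naive cells and 0.85 at day 5 in the fits of single stages, and its change was 0.50 on the log2 scale in the fit of all 27 libraries (limma, SE 0.12, adjusted p = 0.00445). The naive lin28Tg libraries also held the higher myeloid and erythroid marker sums, and their part in this change was not tested.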

How the results depend on the processing

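Most results kept their direction and their side of the threshold under the alternatives. Without the naive stage, a choice made after seeing the data, the pairs called were 4 for lin28Tg over WT and 6 for lin28Tg over let-7Tg, since fewer pairs were tested. The single let-7Tg against WT call became 0 with no filter and with only the groups compared, and 0 to 1 when 1 library was left out; the cause was not tested. Separate ranges in the order lin28Tg, WT, let-7Tg over the 12 unselected pairs fell from 5 to 3 after scaling by a trimmed mean of log ratios. Scaling by a median of ratios instead lost Hmga1 at 12 h and gained Arid3a in naive cells. The differences that turned sign were all small and not called. Arid3a in WT from naive to 12 h was -0.04 with no scaling, Zc3hav1l in naive let-7Tg against WT lay between -0.04 and 0.13 when 1 library was left out (-0.01 without let-7Tg replicate 3, -0.02 without let-7Tg replicate 1), the change of the lin28Tg to let-7Tg gap lay between -0.36 and 0.02 for Tmed5 from 12 h to day 5 and between -0.17 and 0.04 (0.01 and 0.02 in other fits) for Zc3hav1l from naive to 12 h.

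With the replicate block, lin28Tg over WT was called in 8 pairs instead of 7, the addition being Tmed5 at day 5, and no other call of the 7 genes changed; the counts were 1 for let-7Tg against WT and 10 for lin28Tg over let-7Tg. The shares of all genes called moved by over 1.5 times, from 2.34% to 8.61% for lin28Tg over WT at 12 h, from 0.488% to 2.27% at day 5 and from 0.0082% to 3.31% for let-7Tg under WT at 12 h when 1 library was left out, and up to 7.05% for lin28Tg over WT at day 5 in other settings. Depth limits Nupr1 in naive and 12 h cells, where WT libraries held 0 to 3 reads.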
